A study of Ovis aries with 24 samples.

Results

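The comparison described here sets the callipyge genotype, CN, against the other genotypes, CC, NC and NN, in the longissimus dorsi (LD), a long muscle of the back, of newborn lambs. The members are 8 of the 24 arrays of the study, chosen by muscle, age code and genotype in the sample titles: 2 arrays of CN and 6 of the others, 2 for each genotype. They were described over the 5955 probe sets, of 24128 on a bovine Affymetrix GeneChip, whose signal was 200 or more in at least 1 of the 4 genotypes. The signal is a linear intensity made with the MAS5 algorithm, and a probe set is a group of short probes for one transcript. The highest group signals just inside that limit were 200.03, 200.06 and 200.10, and those just outside were 199.99, 199.98 and 199.98. Of the 5955 probe sets, 4352 carried 1 gene symbol, 5040 reached 200 in CN and in another genotype, 204 did so in CN alone and 711 in other genotypes alone.

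The lambs were crosses of Dorset, Suffolk and Rambouillet breeds, bred for this purpose, and were taken within 5 days of birth, an age coded T0. N stands for the wild type allele and C for the callipyge allele. NN is the wild type, CC carries the mutation on both chromosomes, and CN and NC are heterozygotes that differ in the parent the mutation came from. The series text calls the callipyge animal the paternal heterozygote, and CN was taken as that genotype, NC as the maternal heterozygote. The 2 arrays of a genotype are technical replicates, so they were averaged on the log2 scale and each genotype is 1 value. The labels describe LD from 8 male lambs, 4 of each genotype, for a pair of genotypes, whereas arrays exist for 4, so the number of lambs behind an array is not known. Each p-value thus rests on how far genotype values spread, not lambs, and the exact age of each genotype's lambs cannot be told apart from genotype.

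The callipyge mutation lies between DLK1 and MEG3 in a cluster of imprinted genes, in which some genes are read only from the father's chromosome and others only from the mother's. Only lambs that inherit the mutation from the father and a normal allele from the mother develop heavy hindquarters and loin, a mode of inheritance called polar overdominance. The enlargement appears in the weeks after birth, comes from larger and not more numerous fibres, and goes with a shift toward fast glycolytic fibres. The birth samples thus precede the visible trait, and the comparison describes how the CN value of each transcript differed from the values of the other genotypes at that age. Muscle mass reflects a balance between protein synthesis and 2 main routes of breakdown, the ubiquitin-proteasome system and autophagy, in which membranes enclose cell contents and deliver them to lysosomes.

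Median signal was 48.1 and 47.4 on the CN arrays and 50.1 to 52.9 on the others, and the technical arrays of a genotype correlated with r of 0.982 to 0.984 over the members. The ratio of 3' to 5' probes of GAPDH, a sign of RNA integrity, was 0.23 and 0.22 (log2) in CN and 0.13 to 0.31 in the others. Markers of muscle were bright on every array, with a summed signal of 18 genes of 321303 to 379145 in CN and 367318 to 435518 in the others. Markers of some other cells in a muscle sample moved with genotype. Their summed signal in CN against the other arrays was 78138 to 83131 against 94952 to 112258 for 43 matrix and fibroblast genes, with 6 of the 43 higher in CN. For 26 endothelial genes it was 14131 to 14364 against 15902 to 17519, with 5 higher, and for 12 red blood cell genes it was 2520.5 to 2531 against 3553 to 3808, with 1 higher. Bright genes weigh most in such sums. In the endothelial sum VEGFA read 3670 and 3940 in CN and CAV1 2905 and 2427. The smooth muscle actin ACTA2 added 2214 and 2323, so that sum is not of endothelial cells alone. In the red blood cell sum GYPC alone read 1802 and 1813 in CN and 2555 to 2739 elsewhere. The sum of 9 nerve and Schwann cell markers was higher, at 850.4 to 865.5 against 569.1 to 785.6. Of the 9 genes 5 were higher, against 48.3% of all genes with a mean signal of 200 or more. Among the 9 only S100B reached that mean, and it overlapped, with 255 and 277 in CN and 154 to 348 elsewhere. The sums of 29 immune and 20 adipocyte genes overlapped between CN and the others (2139 to 2189 against 2137 to 2765, and 3325 to 3326.5 against 2470 to 3778). Higher in CN were 12 of the 29 and 9 of the 20. In such whole-muscle samples fewer cells of a type and less RNA per cell cannot be told apart. The part of these shifts in the results that follow was not tested.

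The genes at the mutated locus were read first, as a check of the genotypes. MEG3, a noncoding RNA read from the mother's chromosome, had signals of 12818 and 13940.2 in CC and 15323 and 16238 in NC, against 3422 and 4019.6 in CN and 1362 and 1339 in NN. The genotypes that carry the mutation on the mother's chromosome were thus the high ones. A second MEG3 probe set gave 608 and 648 in CC, 614 and 714 in NC, 215 and 239 in CN and 221 and 242 in NN. DLK1, a membrane protein of the Notch ligand family read from the father's chromosome, was at 3865 and 4334 in CN and at 1028 to 1526 on the other arrays. Both CN arrays lay above all others, but the difference of 1.71 ± 0.45 (log2, SE of the fit) did not pass in limma (adjusted p = 0.149). Its T12 difference was 2.76 (adjusted p = 0.0493).

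Genes around the imprinted cluster showed no called difference. Of 12 genes in the list of the cluster, 5 were measured on a bright probe set, with a median difference of −0.13 and 0 called. PPP2R5C, a regulatory subunit of protein phosphatase 2A, was at 714 and 698 in CN and 681 to 935 elsewhere, a difference of −0.13. The transcription factor YY1 differed by 0.17 and the tryptophan tRNA synthetase WARS1 by −0.14 on their brightest probe sets. Among neighbours on the RefSeq sheep map, looked at after their values were seen, DYNC1H1, the heavy chain of cytoplasmic dynein, was at 0.53 (adjusted p = 0.248), the chaperone HSP90AA1 at 0.62 (adjusted p = 0.196) and the actin histidine methyltransferase SETD3 at −0.57 (adjusted p = 0.243). A list of 9 measured imprinted genes from other loci had a median of −0.01, with IGF2R, which clears IGF2, at 0.51, the cell cycle inhibitor CDKN1C at 0.36, PON2 at 0.48 and the growth factor IGF2 at 0.33, none of them called.

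Across the array 27 of 15664 probe sets tested, or 0.172%, passed an adjusted p under 0.05, with 20 higher in CN (0.128%) and 7 lower (0.0447%). Of these, 25 were members, 20 higher and 5 lower, and the other 2, XRCC4 and DTNA, stayed under a signal of 200 in every genotype. Both CN arrays lay beyond all 6 others for each of the 25, as they did for 14.9% of all members on the upper side and 15.4% on the lower side. A mean signal of 200 over the 8 arrays was reached by 19 of the 25. Of the rest, 4 higher ones (BNIP3, HSPA2, ERRFI1 and Bt.6642.1.S1_at) reached 200 in CN alone and 2 lower ones (PTER and Bt.7642.1.S1_at) in other genotypes alone, so they are members only through the groups in which they are high. The adjusted p of the called members lay between 0.0145 and 0.0486. A further 32 probe sets had an adjusted p between 0.05 and 0.051, so the number called rests on where the line is drawn, and 171 members (89 higher, 82 lower) passed 0.10. With each array centred on the median of its bright probe sets 51 were called, 23 higher and 28 lower, and with quantile normalization 7 were called, 5 higher and 2 lower, 6 of them among the 25. Without single arrays the count ran from 3 (without replicate 2 of NC at 12 weeks) to 270 (without replicate 1 of CN at birth), and with NC left out of the comparator it was 0.

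**Figure D1:**
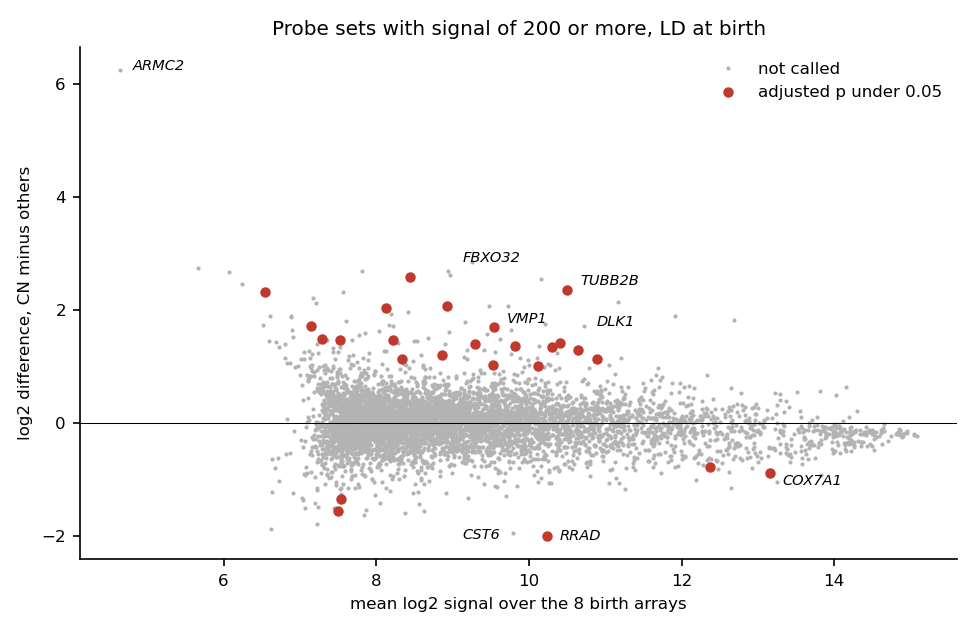
Each point is 1 of the 5955 probe sets, with its mean log2 signal over the 8 birth arrays on the horizontal axis and the log2 difference between CN and the mean of the other genotypes on the vertical axis. Red points are the 25 with an adjusted p under 0.05 in limma, 20 above and 5 below 0, while ARMC2 at 6.24, FBXO32 and DLK1 are large differences that did not pass.

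The 17 called members with 1 symbol stand for 16 genes. Those higher in CN included genes of autophagy, of ubiquitin ligases, of translation and of the cytoskeleton, and those lower were RRAD, COX7A1 and PTER. They are taken below by role, with the genes of the same role that did not pass.

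**Figure D2:**
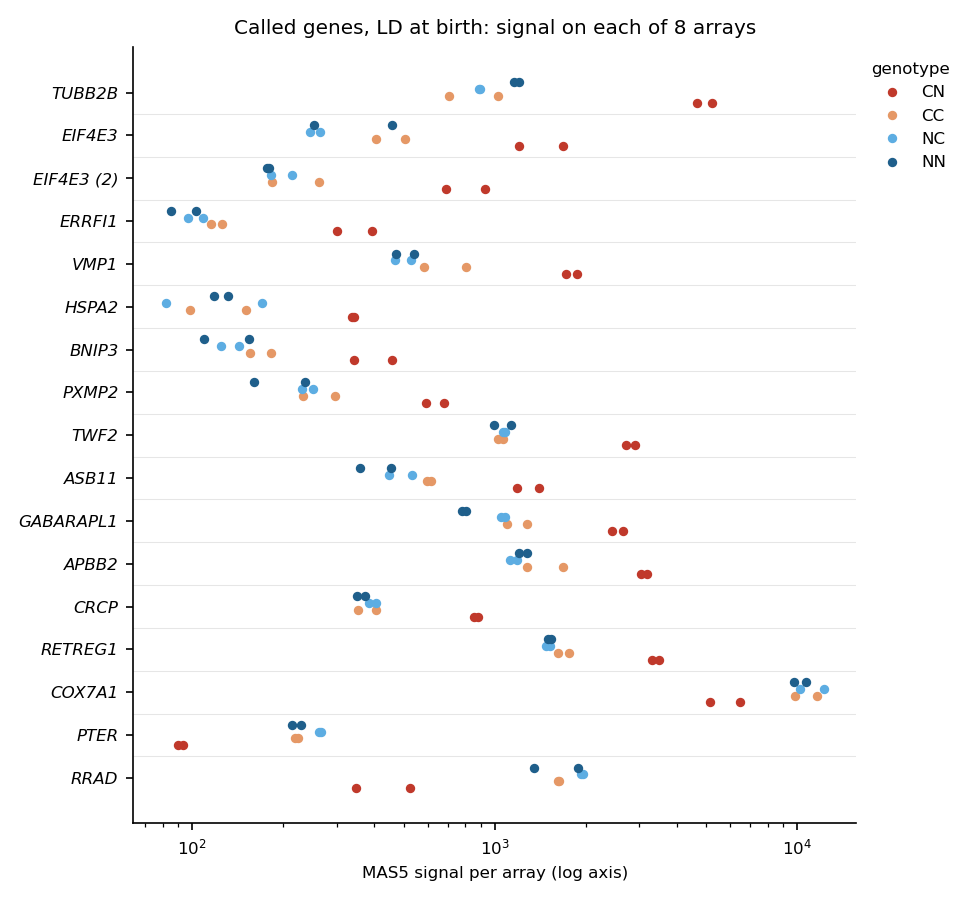
The signal of the called members with 1 symbol is shown on each of the 8 birth arrays, on a log axis, with 1 point per technical array and colours for genotype; EIF4E3 has 2 probe sets. The red CN points lie beyond all others in every row, above them for all genes but COX7A1, PTER and RRAD.

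Autophagy genes were higher in CN. VMP1, a membrane protein needed to form autophagosomes, had signals of 1870 and 1727 in CN, 807 and 583 in CC, 469.5 and 528 in NC and 542 and 470.4 in NN. It rose by 1.69 ± 0.22 (adjusted p = 0.0287). GABARAPL1, a ubiquitin-like protein that is attached to the autophagosome membrane, was at 2451 and 2649.9 in CN, 1281 and 1101 in CC, 1086 and 1052 in NC and 779.5 and 806 in NN. Its rise was 1.35 ± 0.21 (adjusted p = 0.047), and a second probe set gave 1.37 (adjusted p = 0.0762). In both genes CC was the next highest genotype by its mean.

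RETREG1, a receptor that directs parts of the endoplasmic reticulum into autophagosomes, was at 3323 and 3502 in CN and 1478 to 1757 elsewhere, a rise of 1.12 ± 0.18 (adjusted p = 0.0475). BNIP3, which marks mitochondria for the same route, rose by 1.47 ± 0.24 (adjusted p = 0.0486) on its dimmer probe set, from 109.7 to 182 in the others to 458 and 342 in CN. This probe set is a member through CN alone and is not the one counted in the list. On its brighter probe set BNIP3 read 1979 and 2098 in CN, 1286 and 1308 in CC, 592 and 494 in NC and 441 and 356 in NN, and the difference of 1.64 did not pass (adjusted p = 0.17). The order CN, CC, NC, NN on that probe set had no overlap between neighbouring genotypes. WIPI1, which binds the lipids of the forming membrane, differed by 1.20 ± 0.22 (adjusted p = 0.0528).

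Of 27 measured genes in the autophagy list, 22 were higher and 5 lower in CN, with a median of 0.41. The median over all 3296 measured genes was −0.01, with 48.3% higher and 51.7% lower. Called were 3 of the 27, all higher (0.364% of all measured genes were called), and both CN arrays lay above all others for 13 of the 27, against 15% of all genes, and below them for 0. Several further autophagy genes, named after their values were seen, did not pass: MAP1LC3A, a relative of GABARAPL1, at 0.98, MAP1LC3B at 0.97 and the mitophagy receptor BNIP3L at 0.70. MAP1LC3B had 4984 and 6054 in CN and 4482 and 4705 in CC, and 2038 to 2308 on the NC and NN arrays. At the other end ULK2, a kinase that starts the process, was at −0.18 and ATG4D at −0.16.

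Lysosomal genes showed a smaller difference, with a median of 0.20 and 17 of 23 higher, and 0 called. ATP6V1G1, a subunit of the proton pump that acidifies lysosomes, was at 1777 and 2228 in CN and 774 to 1343 elsewhere, a difference of 1.14 (adjusted p = 0.0574). The tetraspanin CD63 differed by 0.69 (adjusted p = 0.086), the pump subunit ATP6V0B by 0.57 and the protease CTSA by 0.51. All 4 genes had both CN arrays above the others, but they were named for the smallest p of the list. In most of the 23 genes the CN arrays overlapped the others, and 15% of all measured genes had both CN arrays above.

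Among genes of the ubiquitin route, ASB11 rose. It is an adaptor that brings substrates to a ubiquitin ligase and was at 1405 and 1186 in CN, 598 and 618 in CC, 446 and 533 in NC and 454 and 359.8 in NN, a rise of 1.39 ± 0.22 (adjusted p = 0.047). ASB12, of the same family, lay the other way, at 608 and 844 in CN and 1098 to 1998 elsewhere (−1.07, adjusted p = 0.0935). In the list of ASB and BTB-Kelch adaptors 6 of 9 genes were higher and 3 lower, with a median of 0.20 and with KLHL24 at 0.28 and ASB8 at 0.29.

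FBXO32, or atrogin-1, a muscle ubiquitin ligase that rises when muscle wastes, showed the largest difference of the list of atrophy and glucocorticoid-responsive genes. Its signals were 1793 and 2119 in CN, 1228 and 1109.9 in CC, 225 and 321 in NC and 106 and 98.3 in NN. Here CN and CC were both high and did not overlap with NC and NN. Against all other genotypes the difference was 2.62 ± 0.89 and did not pass (adjusted p = 0.263), with 2.69 on a second probe set. In this test the distance of CC from NC and NN counts as spread.

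The same list had 11 of 13 genes higher, a median of 0.30 and 0 called. CEBPD, a transcription factor induced by glucocorticoids, was at 1711 and 1684 in CN, 812 and 1069.9 in CC and 442 to 529.6 in NC and NN (1.48, adjusted p = 0.0949). DDIT4, an inhibitor of the growth kinase mTORC1, was at 8289 and 7765 in CN and 3272 to 5707 elsewhere (0.85, adjusted p = 0.0935). The coactivator partner CITED2 was at 0.71 (adjusted p = 0.135).

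Proteasome subunits were slightly higher almost throughout, with 28 of 29 above 0 and a median of 0.25. Both CN arrays lay above all others for 18 of the 29, against 15% of all genes, and 0 passed the test. PSMD11, of the lid of the regulatory particle, was at 5931 and 6707 in CN and 3854 to 4439.8 elsewhere (0.62, adjusted p = 0.0838). PSMD6 differed by 0.78, the activator PSME4 by 0.74 and PSMD1 by 0.55. At 12 weeks the median of the same list was 0.24, with 25 of 29 higher.

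Genes of the mitochondrial respiratory chain were lower in CN. COX7A1, the muscle form of a subunit of cytochrome c oxidase, had signals of 5154 and 6497 in CN, 9806 and 11592 in CC, 10259 and 12226 in NC and 9741 and 10675 in NN. It fell by 0.88 (SE 0.13, adjusted p = 0.0462), and CC, NC and NN overlapped with each other. In the list of complexes III to V all 38 measured genes were lower in CN, by a median of −0.40, and COX7A1 was the 1 called. Both CN arrays lay below all others for 30 of the 38, against 17.3% of all genes. ATP5MC1, of the ring of the ATP synthase, was at 8280.1 and 8468 in CN and 12128 to 16054 elsewhere (−0.73, adjusted p = 0.0574). ATP5MF was at −0.62 (adjusted p = 0.0615) and COX8B, another oxidase subunit, at −0.84 (adjusted p = 0.0689).

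Complex I, the entry point for electrons from NADH, gave the same picture with all 38 measured genes lower, a median of −0.52 and 0 called. Both CN arrays were below all others for 32 of the 38, against 17.3% of all genes. NDUFS3, of its core, was at 4916 and 5796 in CN and 7179 to 9015 elsewhere (−0.63, adjusted p = 0.0574). NDUFA10 differed by −0.84 (adjusted p = 0.0653), NDUFS1 by −0.65 and NDUFS8 by −0.65. The differences ranged from −0.84 to −0.20. The list's median lay between −0.60 and −0.46 over the 14 other settings that changed it, among them quantile normalization, and that of complexes III to V between −0.51 and −0.25. In each of the 4 genotypes replicate 2 lay above replicate 1, by 0.10 to 0.18 for the median of complex I and 0.14 to 0.18 for that of complexes III to V, and its part in the result was not tested.

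Enzymes of pyruvate use and the tricarboxylic acid cycle were lower in 22 of 23 cases, with a median of −0.49 and 0 called. IDH2, the mitochondrial isocitrate dehydrogenase, was at 3509.8 and 3488 in CN, 6603 and 6065 in CC, 8988 and 9319 in NC and 8092 and 8539 in NN (−1.16, adjusted p = 0.079). CC lay between CN and the NC and NN arrays. SUCLA2, of succinyl-CoA synthetase, was at −0.58, SDHC, of complex II, at −0.66, and PDHA1, of pyruvate dehydrogenase, at −0.56.

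Other mitochondrial functions moved less. Of 23 genes of fatty acid use 18 were lower, with a median of −0.19. HADH, of beta oxidation, was at 2540.2 and 2588 in CN and 3988 to 5007 elsewhere (−0.78, adjusted p = 0.0502), the carnitine carrier SLC25A20 at −0.67 (adjusted p = 0.0574), ECI2 at −0.72 and HADHA at −0.59. In the list of mitochondrial biogenesis and carriers 20 of 23 were lower, with a median of −0.18. The carrier SLC25A11 was at 4071 and 3946 in CN and 6383 to 8069 elsewhere (−0.88, adjusted p = 0.0502), SLC25A12 at −0.58, the phosphate carrier SLC25A3 at −0.36 and the outer membrane channel VDAC1 at −0.32. Proteins of the mitochondrial ribosome were lower in 44 of 53 cases, with a median of −0.20 and with MRPL2 at −0.80, MRPL13 and MRPL30 both at −0.53 and MRPL51 at −0.42. None of the genes in these 3 lists was called. The matrix, endothelial and red blood cell sums given above were lower on the same CN arrays.

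**Figure D3:**
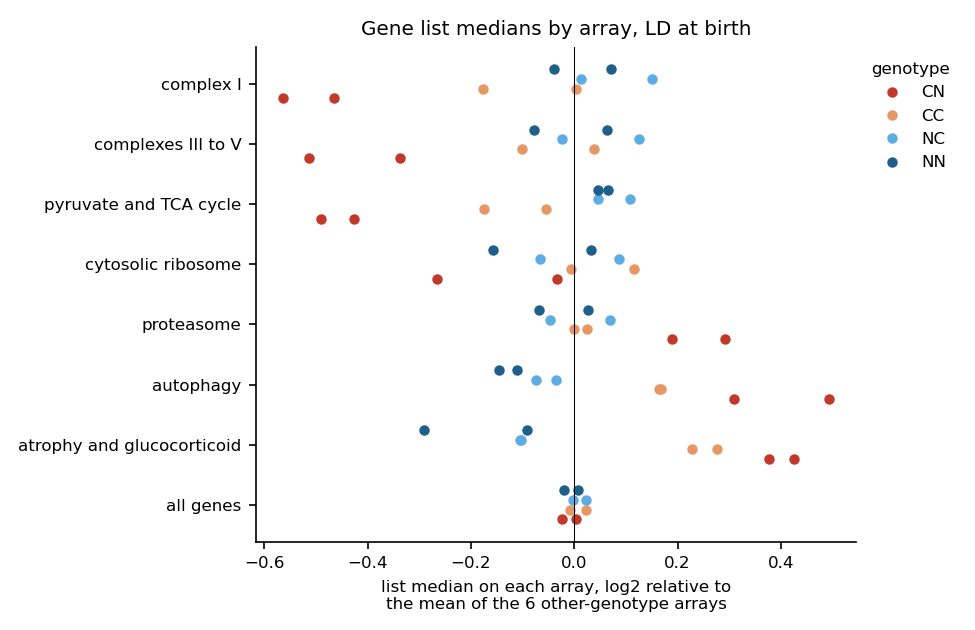
For 8 gene lists the median log2 signal of each birth array is shown relative to the mean of the 6 arrays of the other genotypes, with 1 point per technical array. The CN arrays lie left of all others for complex I, complexes III to V and the tricarboxylic acid cycle and right of all others for the proteasome, autophagy and atrophy lists, while for all genes the 8 arrays lie close to 0.

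Glycolytic and glycogen genes were lower in 20 of 27 cases, with a median of −0.23, which was −0.07 with quantile normalization, and 0 were called. PGK1, phosphoglycerate kinase, was at 6484 and 4875 in CN and 6513 and 8736 in CC, and at 16021 and 14919.5 in NC and 13148 and 14428 in NN (−1.06 against all others, adjusted p = 0.26). Both genotypes lay below NC and NN, and the CN arrays lay below the CC arrays, by little for the nearest pair. GYG1, the primer of glycogen, was at 1111 and 1083 in CN and 1763 to 2788 elsewhere (−0.94, adjusted p = 0.065), and the glycogen phosphatase subunit PPP1R3C was at −0.73. UGP2, which makes the glucose donor for glycogen, lay the other way at 0.57, with both CN arrays above the rest.

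The largest called decrease among the members was in RRAD, a small GTPase that restrains the calcium channels of the muscle membrane. Its signals were 348 and 526 in CN, 1628 and 1623 in CC, 1929 and 1962 in NC and 1349.9 and 1886 in NN. It fell by 2.00 (SE 0.21, adjusted p = 0.0145). RRAD and TUBB2B stayed called whichever of the 24 arrays was left out, while both lost the call without NC in the comparator and without an intensity trend.

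Of 20 measured genes of calcium release and signalling 19 were lower in CN, with a median of −0.34 and RRAD as the 1 called. ORAI1, a calcium entry channel, was at −0.81 (adjusted p = 0.162), PPP3CB, a catalytic subunit of calcineurin, at −0.74 and ATP2A1, the calcium pump of fast fibres, at −0.39. RRAD is also one of 7 measured genes known to respond to loss of innervation, of which 5 were lower, with a median of −0.72. The list was mixed, with MYH3 at 0.98 and TNFRSF12A at 0.37. In these genes and in MYH8 (−1.08) the CN arrays overlapped the others. CHRNE, the adult subunit of the acetylcholine receptor, was at 232 and 227 in CN and 385 to 586 elsewhere (−0.99, adjusted p = 0.0597). The muscle transcription factor MYOG was at −0.72 and the titin-associated ANKRD1 at −0.60, each with both CN arrays below the rest. Both CN arrays were below all others for 17.3% of all genes.

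Contractile genes differed little. All 9 measured fast-fibre genes were lower in CN, by a median of −0.26 that became −0.09 with quantile normalization, and 0 were called. ACTN3, of the fast-fibre Z line, was at −0.41, ATP2A1 at −0.39, the phosphorylase PYGM at −0.35 and the troponin TNNT3 at −0.26. Slow-fibre genes were lower in 11 of 12 cases, with a median of −0.20, which was −0.12 with quantile normalization. MYH7, the slow myosin, was at 16475 and 17992 in CN and 20033 to 24037 elsewhere (−0.32). The slow troponin TNNT1 and the light chain MYL2 were both at −0.37 and the calcium pump regulator SLN was at −0.37. Of 18 general muscle genes 16 were lower, with a median of −0.23, which was −0.08 with quantile normalization, and 0 were called. MYOZ1 was at −0.49 and myoglobin, MB, at −0.55. At 12 weeks the medians were 0.02 for fast and −0.60 for slow genes, the latter with 12 of 12 lower.

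Embryonic and neonatal genes spread widely, from −1.08 for the neonatal myosin MYH8 to 1.71 for DLK1, with a median of 0.43 and 5 of 8 higher. The smooth muscle actin ACTA2 was at −0.28. None was called. MYH8 read 374 and 402 in CN, 355 and 454 in CC, 624 and 789 in NC and 1909 and 2031 in NN, with CN and CC overlapping at the low end. MYH3 read 1944 and 1969 in CN, 327 and 365 in CC, 956 and 1014 in NC and 2854 and 2901 in NN. ACTC1 read 22917 and 27678 in CN, 9963 and 9339 in CC, 17610 and 18860.5 in NC and 23401 and 26178 in NN. In MYH3 and ACTC1, unlike MYH8, CN lay far above CC.

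TUBB2B, a beta tubulin of growing cells, showed the largest called increase with a symbol, at 5241 and 4658 in CN, 1027 and 709 in CC, 888 and 894 in NC and 1163 and 1202 in NN. It rose by 2.36 ± 0.26 (adjusted p = 0.0145). A dimmer TUBB2B probe set read 145 and 198 in CN and 127 to 258 elsewhere (0.02), so its probe sets disagreed, and beta tubulins are near copies of each other. The list of microtubule genes had a median of 0.05, with 8 of 13 higher and TUBB2B alone called. The stabiliser MAP4 was at 0.64 and the destabiliser STMN1 at −0.79. TWF2, which binds actin monomers and caps filaments, was at 2717 and 2914 in CN and 993 to 1131 elsewhere, a rise of 1.41 ± 0.23 (adjusted p = 0.0486). In the dystrophin and adhesion list 11 of 14 genes were lower, with a median of −0.16, LDB3 at −0.43, ITGB1BP2 at −0.29, ITGB1 at −0.17 and 0 called.

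EIF4E3, a cap-binding protein of the translation factor family EIF4E, rose on both of its probe sets. The brighter read 1683 and 1206 in CN, 506 and 404 in CC, 245 and 264 in NC and 456 and 252 in NN, a rise of 2.07 ± 0.28 (adjusted p = 0.0366). The other gave 2.02 ± 0.32 (adjusted p = 0.047). Translation factors as a list had a median of 0.10, with 24 of 34 higher and EIF4E3 alone called. EIF3I was at 0.76 (adjusted p = 0.0779), EIF3J at 0.65 and the elongation factor subunit EEF1D at −0.67. Proteins of the cytosolic ribosome were lower in 58 of 61 cases, but only by a median of −0.15, which was 0.06 with quantile normalization. RPS24 was at −0.37, RPL27A at −0.30, RPS6 at −0.28 and RPL38 at −0.51, and 0 were called.

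Among growth regulators ERRFI1, a feedback inhibitor of the epidermal growth factor receptor, was at 393 and 301 in CN and 85.1 to 125 elsewhere, a rise of 1.71 ± 0.28 (adjusted p = 0.0475). Dimmer ERRFI1 probe sets, under 200 in every genotype, gave 1.21 (adjusted p = 0.578), 0.62 and 0.15 and were not called. APBB2, an adaptor that binds the amyloid precursor protein, rose by 1.28 ± 0.21 (adjusted p = 0.0475), with 3181 and 3042 in CN and 1125 to 1676 elsewhere. In the list of myogenic and growth genes 16 of 22 were higher, with a median of 0.15, EIF4E3 as the 1 called and IGFBP7, a binding protein of insulin-like growth factors, at −0.51. Cell cycle genes were lower in 9 of 11 cases, with a median of −0.34. CKS2, a partner of cyclin-dependent kinases, was at 107 and 102 in CN and 237 to 445 elsewhere (−1.55, adjusted p = 0.0655), and the cyclin CCND2 was at −0.62.

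Immediate early genes went both ways, with 9 of 22 higher, 13 lower, a median of −0.13 and 0 called. MYC was at 2888 and 2999 in CN, 994 and 1151 in CC, 1001 and 888 in NC and 688 and 629 in NN (1.75 ± 0.31, adjusted p = 0.0502). ATF3, a stress-induced transcription factor, was at 142 and 147 in CN and 285 to 649.6 elsewhere (−1.59, adjusted p = 0.269). IER3 differed by −1.08 (adjusted p = 0.0893) and CCN2, a matrix-associated signalling protein, by 0.64.

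Genes that respond to amino acid shortage had a median of 0.30, with 9 of 15 higher and 0 called, and their leading members differed among the other genotypes too. PSAT1, of serine synthesis, was at 2129 and 2069 in CN, 121 and 92.8 in CC, 756 and 474 in NC and 2046 and 1876 in NN (2.07, adjusted p = 0.542). PSPH, of the same pathway, was at 1703 and 1475 in CN, 169 and 206 in CC, 533 and 732 in NC and 1346 and 1268 in NN. In both genes CN and NN were high and CC low. SLC3A2, the heavy chain of amino acid transporters, was at 580.4 and 507 in CN and 155 to 316 elsewhere (1.27, adjusted p = 0.0893), CHAC1, which degrades glutathione, at 1.23 and the receptor VLDLR at −0.48. PCK2, the mitochondrial form of phosphoenolpyruvate carboxykinase, was at 424 and 469 in CN and 67.7 to 149.5 elsewhere (2.13, adjusted p = 0.0502).

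HSPA2, a chaperone of the HSP70 family, was at 344 and 338 in CN and 81.9 to 170.1 elsewhere, a rise of 1.49 ± 0.23 (adjusted p = 0.047). The list of heat shock genes, in which HSPA2 did not reach the mean signal of 200, had a median of 0.06, with 25 of 42 higher and 0 called. DNAJB9, a helper of chaperones in the endoplasmic reticulum, was at 0.65, the chaperonin subunit CCT6A at 0.80 and HSPH1 at 0.77.

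The remaining called genes were of other functions. PXMP2, a channel of the peroxisome membrane, was at 683 and 591 in CN and 159.7 to 296 elsewhere, a rise of 1.46 ± 0.21 (adjusted p = 0.0462). CRCP, a subunit of RNA polymerase III, rose by 1.20 ± 0.18 (adjusted p = 0.0462), from 352 to 406 to 880.3 and 854. PTER, a phosphotriesterase-related protein, was at 93 and 90 in CN and 213 to 266 elsewhere and fell by 1.36 (SE 0.22, adjusted p = 0.0475). The other 8 called members carry no symbol. Of these Bt.6642.2.S1_at read 1668 and 1056 in CN and 130.5 to 405 elsewhere (2.58 ± 0.40, adjusted p = 0.047) and Bt.6642.1.S1_at 326 and 298 against 41.4 to 112 (2.32 ± 0.28, adjusted p = 0.0198). Bt.8289.1.S1_at fell by 0.79 (SE 0.12, adjusted p = 0.047), from 5897 to 6574 to 3582 and 3468.

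Some of the largest differences did not pass. Of these, ARMC2, PPM1M and FMO2 reached a signal of 200 in CN alone, as did PCK2 above. PTGES, NCF4, TTYH1 and NME4 reached it in other genotypes alone, as did CKS2 and ATF3 above. Such genes are members only through the groups in which they are high, so their values are a description. ARMC2, an armadillo repeat protein, was at 666 and 619 in CN and 2.2 to 36.5 elsewhere (6.24 ± 1.05, adjusted p = 0.0502), and the low side is below every array's median signal, so the size is uncertain. HMOX2, a heme oxygenase, was at 915 and 985 in CN and 189.5 to 326 elsewhere (1.97, adjusted p = 0.0694). PPM1M, a protein phosphatase, was at 244 and 181 in CN and 13.6 to 47.8 elsewhere, below the median signal of each of those arrays, so no size is given. The arrestin-domain protein ARRDC2 gave 2.31 and the monooxygenase FMO2 1.88, sizes that are uncertain too, since both NN arrays were below their median signal, at 20.8 and 50.7 for ARRDC2 and 42 and 48.2 for FMO2. On the lower side CST6, a protease inhibitor, was at 273 and 377 in CN and 839.9 to 1834 elsewhere (−1.95, adjusted p = 0.058). GPT, the alanine aminotransferase, was at 416 and 430.1 in CN and 909.6 to 1204 elsewhere (−1.30, adjusted p = 0.0502). The prostaglandin E synthase PTGES gave −1.79, the phagocyte oxidase subunit NCF4 −1.64, the chloride channel TTYH1 −1.45 and the nucleotide kinase NME4 −1.43. PTGES read 44.8 on replicate 1 of CN, below the median signal of that array (48.1). NME4 read 70.7 and 224 in CN and 224.8 to 441.5 elsewhere. The sizes for PTGES and NME4 are therefore uncertain.

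Of the lists for other cells, matrix and fibroblast genes had a median of −0.36, with 23 of 28 lower, both CN arrays below all others for 10 (17.3% of all genes) and 0 called. SPARC, a matrix glycoprotein, was at 4444 and 3789.9 in CN and 5977 to 7741 elsewhere (−0.71), with COL15A1 at −0.68 and COL3A1 at −0.37, while P4HB, which folds procollagen, was at 0.57. Genes of the endothelial list were lower in 10 of 11 cases, with a median of −0.24, the junction protein CDH5 at −0.95 (adjusted p = 0.0892), CAV1 at −0.36 and ERG at −0.31. The 11 include genes not particular to endothelial cells, among them ACTA2 (−0.28), VEGFA (−0.13) and FABP4 (−0.14), which is in the adipocyte list too. In ERG, PECAM1 (−0.09), TEK (−0.15), ENG (−0.24) and EMCN (0.19) the CN arrays overlapped the others. Both measured red blood cell genes were lower, GYPC at −0.55 and the fetal globin HBG at −0.52. Adipocyte genes had a median of 0.39 over 5 genes, with ADIPOR2 at 0.69, SCD at 0.51, LIPE at 0.39, FABP4 at −0.14 and LPL at −0.27. The single measured immune gene, JCHAIN, was at −0.07 and the single nerve and Schwann cell gene, S100B, at 0.23. None of these genes was called.

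**Figure D4:**
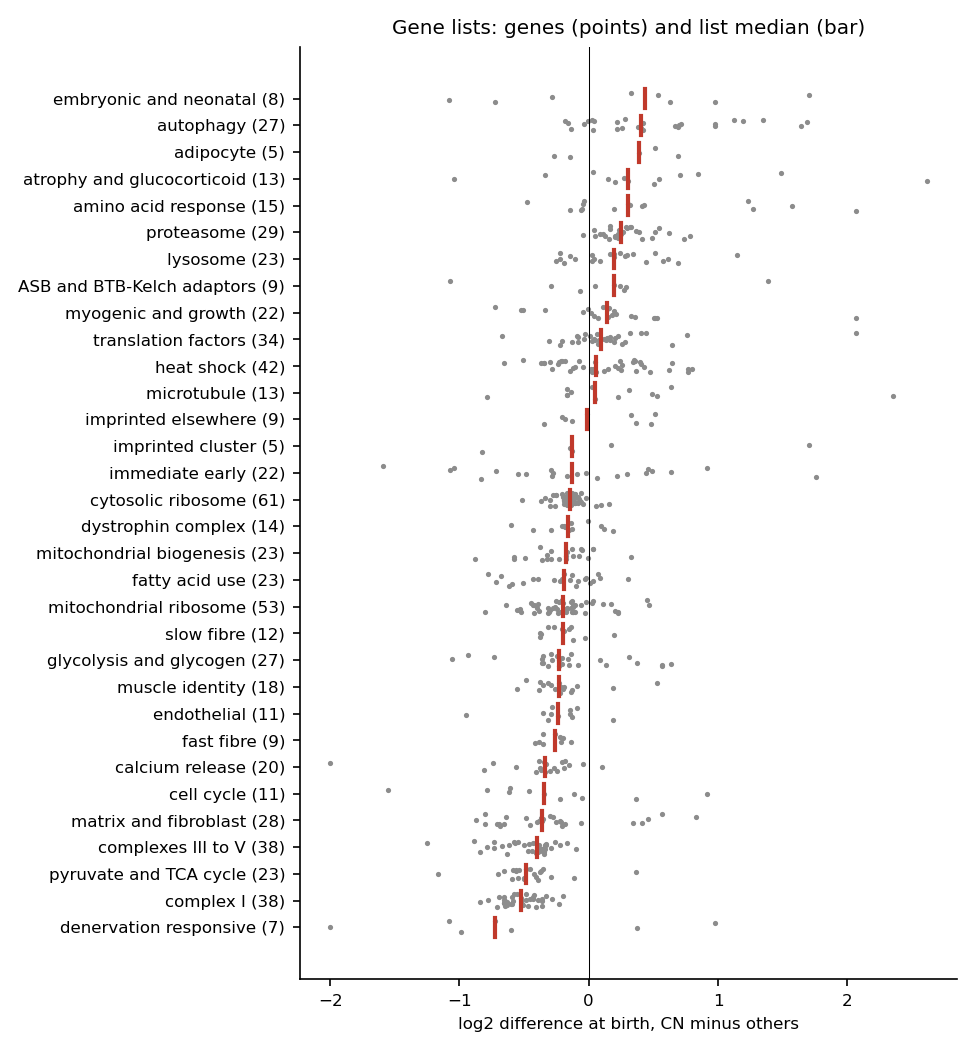
For each gene list with at least 5 measured genes, every gene's log2 difference at birth (CN minus the other genotypes) is a grey point and the list's median a red bar, with the number of genes in brackets. All points of complex I and of complexes III to V lie left of 0, while 28 of 29 proteasome and 22 of 27 autophagy points lie right of it.

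In several genes above CC lay with CN, and this was followed up after the values were seen. With CN read as the paternal heterozygote, CN and CC share a mutation on the father's chromosome. All 4 CN and CC arrays lay above all NC and NN arrays in 499 members (8.38%) and below them in 454 (7.62%). A difference of 1 or more between the genotype pairs was seen in 59 of the former and 17 of the latter. ARRDC2 read 564 and 695 in CN and 558 and 496 in CC, against 20.8 to 123 in NC and NN. SESN1, a stress-induced inhibitor of mTORC1, read 1313 and 1375 in CN and 2388 and 1507 in CC, against 449.7 to 859.8 in NC and NN. CST3, the secreted protease inhibitor cystatin C, read 9936 and 10566 in CN, 4093 and 3889 in CC and 1898 to 2797 in NC and NN.

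The same count was made in all lists. Among the 17 with 20 or more measured genes, the arrangement was found upward in 12 of 27 autophagy genes, 9 of 34 translation factors, 7 of 29 proteasome genes, 4 of 22 myogenic and growth genes, 4 of 27 glycolysis genes, 4 of 42 heat shock genes and 3 of 23 lysosome genes, against 8.59% of all measured genes. Each of the other 10 had 0 to 2. Downward it was found in 12 of 38 complex I genes, 11 of 23 genes of the tricarboxylic acid list, 12 of 28 of matrix and fibroblast, 8 of 23 of mitochondrial biogenesis, 14 of 53 of the mitochondrial ribosome, 9 of 42 of heat shock, 5 of 27 of glycolysis, 4 of 23 of fatty acid use and 6 of 38 of complexes III to V, against 8.62%. The cytosolic ribosome had 4 of 61, calcium release 0 of 20 and each of the others 0 to 3. Of the shorter lists, atrophy and glucocorticoid genes had 7 of 13 upward, and fast and slow fibre genes had 0 in either direction. The median of the complex I differences was −0.45 against CC, −0.62 against NC and −0.54 against NN. For autophagy these medians were 0.11, 0.38 and 0.47. The distance of CN from CC was therefore the smallest of the 3 in both lists. These are descriptions of 4 genotype values, with no test.

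**Figure D5:**
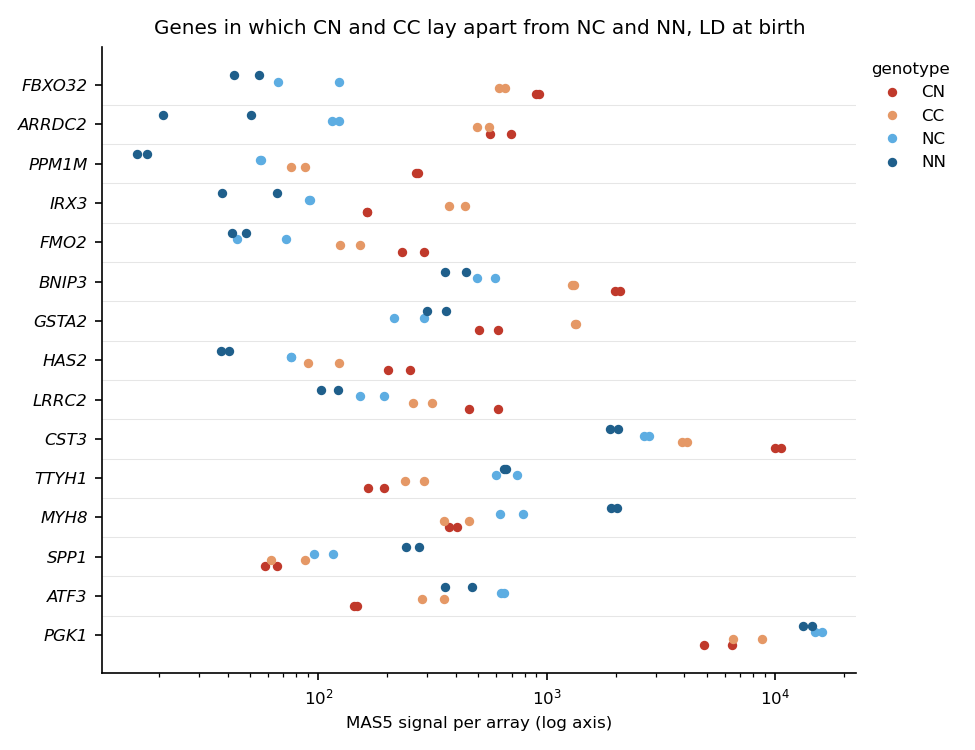
The signal on each of the 8 birth arrays is shown on a log axis for the 10 genes with the largest upward and 5 with the largest downward difference among those in which all CN and CC arrays lay beyond all NC and NN arrays. In FBXO32, ARRDC2 and BNIP3 the red CN and orange CC points lie together on the right, and in PGK1 and MYH8 together on the left; the genes were picked for this pattern.

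The called members were then read at 12 weeks, on arrays of the same muscle coded T12. Of 15664 probe sets 28 (0.179%) were called at that age, 16 of them members, and 0 members were called at both ages. The 25 members called at birth had differences of −0.37 to 0.71 at 12 weeks, with a median size of 0.21 against 1.41 at birth. Of the 25, 17 kept the sign, a description only, as the share over all members is not given here. The 25 were picked by their birth values, which alone favours a smaller size at 12 weeks, so these sizes do not measure a change with age. RRAD was at 0.37 at 12 weeks, VMP1 at −0.21, GABARAPL1 at −0.37 and COX7A1 at −0.13, while TUBB2B was at 0.40 and APBB2 at 0.57. The birth difference minus the 12-week difference was called in 0 probe sets by limma (0%), with 1392 (8.89%) at an unadjusted p under 0.05 and a lowest adjusted p of 0.105, that of RRAD. Thus no gene was shown to differ between the ages.

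Of the 12 lists with 5 or more measured genes and a median of 0.30 or more in size at birth, a limit set after the values were seen, 9 had a median of the same sign at 12 weeks and 8 of these a smaller one. A cut on the birth medians by itself favours smaller medians at 12 weeks, so this count does not measure a change with age. Complex I was at −0.21 with 32 of 38 genes lower, complexes III to V at −0.23 with 37 of 38 lower and the tricarboxylic acid list at −0.19 with 18 of 23 lower. Autophagy was at 0.16 with 17 of 27 higher and the atrophy list at 0.05 with 8 of 13 higher. Denervation-responsive genes were at −0.23, cell cycle genes at −0.15 and calcium genes at −0.02, and matrix and fibroblast genes, with −0.38, were about as far from 0 as at birth. The sign turned for adipocyte genes (−0.32, with 4 of 5 lower), embryonic and neonatal genes (−0.03) and the amino acid response (−0.03). The glycolysis list, at −0.23 at birth and so under that limit, was at 0.19 with 17 of 27 higher. No gene of these lists passed the test of the difference between ages.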

How the data were processed

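The authors deposited linear intensity values, 1 per probe set and array. They were made with MAS5, per the submitters' processing notes, and its version is not given here. Detection calls were not used here. Each birth array had a 2% trimmed mean of about 200 (200.08 to 200.09), so every array was scaled to one level, and a global shift in RNA amount would not be seen. Total RNA (5 µg) was labelled per the labels. The chip was designed on cattle sequence, so mismatches to sheep RNA can lower a probe set's level in all genotypes.

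Values at or below 1, of which the 24 arrays held 5400, were set to 1, log2 was taken and the 2 technical arrays of a group were averaged. The 12 group values were fitted with limma version 3.58.1 in R version 4.3.3 (eBayes with trend, two-sided tests, Benjamini-Hochberg adjustment). The model had 8 cells, and at either age the 3 other LD genotypes were values of a shared cell. Residual degrees of freedom were 4 and prior ones 6.88, and the single CN value is assumed to vary like these genotypes. Tested were 15664 of 24016 probe sets without controls, those brighter than the overall median in 1 group or more. The script was tested on simulated data. Figures were drawn with matplotlib version 3.10.9.

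Symbols came from the platform annotation, and 3537 of the members' 3702 symbols occur in the RefSeq sheep table (ARS-UI_Ramb_v3.0). The 35 lists hold 1254 genes. A measured gene is the brightest probe set of a symbol with a mean signal of 200 or more, 3296 in all, a limit on the mean over the 8 birth arrays chosen after the data were seen. Lists are described by counts and medians, without a test. Named were all called members with a symbol, the imprinted cluster, the 4 genes of smallest p in each list, and the 10 largest differences each way in which the CN arrays did not overlap the others. Members and lists were chosen with earlier results of these data known. The number of arrays limits the precision.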

Additional observations from a re-analysis of the deposited data

How the results depend on the processing

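The birth count (27 probe sets, 25 members) moved with most settings. In probe sets and members it was 101 and 81 at an adjusted p under 0.06 (added after seeing the data), 7 and 6 with quantile normalization, 51 and 42 with centred arrays and 55 and 48 on LD groups only. It was 86 tested on members only and 67 tested on a mean signal of 200 or more. With values under 16 set to 16 it was 67 and 62, with log2(value + 16) 76 and 71, with robust eBayes 82 and 68, on LD T0 groups only 5 in both and without an intensity trend 0 in both. Without genotype CC it was 270 and 246, without NN 4 in both and without NC 0 in both.

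Leaving out 1 array gave 3 to 270 probe sets and 2 to 165 members. At birth the counts for replicates 1 and 2 were 270 and 251 (CN), 5 and 6 (CC), 7 and 6 (NC), 9 and 6 (NN). At 12 weeks they were 5 and 6 for CC in LD and 6 for both NN arrays. Single arrays of CN (replicate 1, 54), NC (replicate 2, 3) and NN of supraspinatus (replicate 2, 60) at 12 weeks also moved it. Besides RRAD and TUBB2B, the called members passed in 11 to 22 of the 24 fits. The cause of the larger counts was not tested.

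The 12-week count (28) was 11 with quantile normalization or no filter, 13 on members only, 10 on a mean signal of 200 or more, 0 without the trend, and 47, 0 and 8 without CC, NC and NN; without 1 array it was 1 to 422. The count of differences between ages (0) was 2 with log2(value + 16) and 16 without CC, and 0 to 44 without 1 array.

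The replicate numbers were not taken to pair the arrays, since deviations of same-numbered arrays correlated at −0.31 to 0.40, and at 0.018 to 0.146 among the birth arrays, where all were positive. At birth replicate 2 lay above replicate 1 in all 4 genotypes for the medians of 13 of 32 lists with 5 or more genes and below it in all 4 for 0, with shifts of 0.12 to 0.23 for the cytosolic ribosome and 0.04 to 0.25 for muscle identity, against 0.03 for all genes. Each genotype holds both numbers. A fit with arrays as values and a replicate block counts technical arrays of 1 sample as separate values, so its number of values exceeds that of samples. Its counts were 560 (495 members) at birth, 246 at 12 weeks and 146 between ages.

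Signs turned for genes near 0. WARS1 on Bt.17036.1.A1_s_at (−0.023) was 0.012 without genotype CC and −0.20 to 0.15 without 1 array, turning without replicate 1 of CC (0.090), NC (0.11) or NN (0.15) at birth. JCHAIN (−0.07) was 0.090 without genotype NN and −0.33 to 0.20 without 1 array. Without 1 array WARS1 on Bt.2841.1.S1_at was −0.29 to 0.0042, turning without replicate 2 of CC at birth. Without 1 of the CN birth arrays YY1 on Bt.1718.2.A1_at was −0.92 to 0.31, and MEG3 was −0.40 to 0.91 on Bt.12510.2.S1_at and −1.48 to 0.0071 on Bt.12510.3.S1_at. The cause of these changes was not tested. Of 39 settings, 14 changed the birth list medians, the others leaving them as they were. Under those 14 the medians of the lists with 5 or more genes kept their sign, except cytosolic ribosome (0.06 with quantile normalization), imprinted cluster (0.00 without LD CC T0 replicate 2), microtubule (−0.06 without LD CN T0 replicate 2) and imprinted genes elsewhere (6 settings).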

Other observations

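Several secreted and metabolic genes not described above also had all CN and CC birth arrays on one side of all NC and NN arrays. They were picked for this, so the values are a description. HAS2, which makes hyaluronan, read 201 and 252 in CN, 90.2 and 123 in CC and 37.4 to 76.1 in NC and NN. GSTA2, a glutathione transferase, was highest in CC, with 255 and 195, followed by 190 and 175 in CN and 95.8 to 154 in NC and NN. SETD7, a lysine methyltransferase, read 2269 and 1917 in CN, 1509 and 1487 in CC and 791 to 897 in NC and NN. On the low side the fatty acid binding protein FABP4 of fat cells and capillaries read 369.9 and 419.9 in CN and 176 and 245 in CC, against 489 to 852 in NC and NN. The vessel growth factor ANGPT1 read 113 and 104 in CN, 141 and 194 in CC and 256 to 329.5 in NC and NN, and the secreted phosphoprotein SPP1 read 65.7 and 58.5, 62.3 and 87.4 and 96.1 to 275.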
